A study of Mus musculus with 4 samples.

Results

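Cyp26a1, Cyp26b1, Dhrs3 and Lrat encode enzymes that degrade retinoic acid (RA), reduce retinaldehyde or esterify retinol. They were read from every probe set that the array annotation assigns to 1 of these genes alone, which gave 5 probe sets of 45037 on the array after its control probe sets were left out, for 4 of 18193 genes. Cyp26a1, Cyp26b1 and Dhrs3 each had 1 probe set and Lrat had 2. The RNA came from male germ cells of mice at 2 days post partum, called gonocytes, that magnetic sorting for the surface protein THY1 had enriched. All samples were cultured for 8 h with no serum, growth factors or feeder cells, and differed in the addition: ethanol, the vehicle, in 2 samples and 100 nM RA in the other 2. The labels name no strain, transgene or mutation and do not say whether animals were pooled or cultures were separate, so the spread behind each p-value may be that of technical repeats.

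Retinol is oxidised to retinaldehyde and then, irreversibly, to RA, which binds receptors of the RAR family that act on DNA as partners of RXR receptors. Dhrs3 runs the first step backwards, Lrat takes retinol out of the pathway as an ester that cells can store, and the cytochrome P450 enzymes Cyp26a1 and Cyp26b1 oxidise RA itself to less active forms. Cyp26a1 is a known direct target of RA receptors, and Cyp26b1 is known for shielding the germ cells of the fetal testis from RA.

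RA receptors are known to bind pairs of a short hexamer, and a pair in the same orientation with 5 bases between its members is called DR5. The promoter windows of RefSeq (GRCm38.p6, 300 bases, 250 of them before a transcript start) were searched on both strands for the 4 hexamers listed beside the sites, and for pairs of them with spacers of 1, 2 or 5 bases, so that every pair also counts as a hexamer match. The 4 genes had 6 windows, 3 of them for Dhrs3. Only Cyp26a1 among the 4 genes held a hexamer, and it held a pair of them as a DR5 that ended 15 bases before the listed start. A hexamer was found in 43.7% of all 32851 windows and a DR5 in 0.0974% of them. Rarb, an RA receptor gene described further on, also held a DR5. Both sites are printed to show the match, with the hexamers in capitals and 6 flanking bases on each side. They are at chr19:37697770-37697798, minus strand, and at chr14:16575507-16575535, minus strand.
Hexamer 1: AGGTCA
Hexamer 2: AGTTCA
Hexamer 3: GGGTCA
Hexamer 4: GGTTCA
Cyp26a1 DR5: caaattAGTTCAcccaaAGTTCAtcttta
Rarb DR5: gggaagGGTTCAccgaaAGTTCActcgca

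The stretches of the Cyp26b1 and Lrat windows that lie before every RefSeq start of these genes are printed because they held none of the 4 hexamers. The Cyp26b1 stretch is chr6:84593909-84594060, minus strand, 152 bases long, with a match to TATAAA in capitals. That motif was found in 13.6% of all windows. The Cyp26a1 window held it too, at position 30 counted downstream from the listed start. The Lrat stretch is chr3:82903975-82904224, minus strand, and is 250 bases long. No match says only that these letters are not in these windows.
Cyp26b1: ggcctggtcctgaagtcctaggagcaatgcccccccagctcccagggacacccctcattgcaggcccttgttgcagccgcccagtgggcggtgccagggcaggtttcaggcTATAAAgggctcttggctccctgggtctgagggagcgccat
Lrat: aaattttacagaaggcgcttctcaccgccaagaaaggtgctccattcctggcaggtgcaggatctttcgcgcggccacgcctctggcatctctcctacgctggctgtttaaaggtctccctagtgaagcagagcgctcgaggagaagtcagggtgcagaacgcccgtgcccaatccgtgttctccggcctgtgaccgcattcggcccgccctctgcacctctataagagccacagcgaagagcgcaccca

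Each sample was hybridised to 1 Affymetrix Mouse Genome 430 2.0 array, whose signal is a linear intensity. Median signals lay between 26.6 and 29.5, and 20% of the probe sets on each array had signals under 3.98 to 5.44. The 3' to 5' signal ratio, which reflects how intact and how evenly amplified the RNA was, was higher on both RA arrays, at 2.08 and 2.32 against 1.72 and 1.73 with vehicle for Actb and at 1.85 and 2.00 against 1.56 and 1.47 for Gapdh. Its part in the results was not tested. Changes are differences of log2(signal + 5) between group means, given with the standard error (SE) and 95% confidence interval (CI) of limma, and folds are on this scale.

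Both RA-degrading enzymes had higher signals with RA than without it, Cyp26a1 by more than Cyp26b1. Cyp26a1 (1419430_at) read 30.9 and 19.9 in the vehicle samples against 164 and 375 in the RA samples. The lower RA array was 5.31 times the higher vehicle array, so the groups lay far apart. On the log2 scale the difference was 3.08 ± 0.41 (SE, n = 2 per group), an 8.47-fold higher level with a CI from 4.41-fold to 16.3-fold. Cyp26b1 (1460011_at) gave 69.4 and 85.5 in the vehicle samples against 161 and 254 in the RA samples. Its groups were also apart, with the lower RA array at 1.88 times the higher vehicle array. The log2 difference was 1.34 ± 0.28 (SE, n = 2 per group), a 2.53-fold higher level with a CI from 1.61-fold to 3.98-fold. At the pseudocount of 5 used here the intervals of Cyp26a1 and Cyp26b1 did not overlap but came close, at 4.41-fold and 3.98-fold. The difference between the genes was not tested. Neither passed adjustment over all 27022 probe sets above the signal filter (limma, adjusted p = 0.212 for Cyp26a1 and 0.931 for Cyp26b1).

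Dhrs3, the reductase that returns retinaldehyde to retinol, was also higher with RA on both arrays. Its probe set (1448390_a_at, which by its suffix matches several transcripts of the gene) gave 115 and 189 with vehicle and 537 and 1211 with RA. The vehicle signals differed from each other more than those of Cyp26b1 did, yet the lower RA array was 2.85 times the higher vehicle array. The log2 difference was 2.41 ± 0.39 (SE, n = 2 per group), a 5.32-fold higher level with a CI from 2.85-fold to 9.93-fold. It did not pass adjustment over all probe sets (limma, adjusted p = 0.391). Of the RA-degrading enzymes, the CI of Dhrs3 overlapped those of both Cyp26a1 and Cyp26b1.

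Lrat, which joins retinol to a fatty acid for storage, was close to the bottom of the signal range without RA and above it with RA on both of its probe sets. The brighter one (1444487_at) gave 8.73 and 5.54 in the vehicle samples against 34.7 and 130 in the RA samples. The RA arrays were apart from the vehicle arrays and also far from each other. The log2 difference was 2.60 ± 0.54 (SE, n = 2 per group), 6.07-fold with a CI from 2.56-fold to 14.4-fold (limma, adjusted p = 0.926). The dimmer probe set (1421345_at) gave 5.41 and 8.38 in the vehicle samples against 12.5 and 42.2 in the RA samples. It was below the filter, and in a fit of all probe sets with no filter it gave 1.28 ± 0.50 (SE, n = 2 per group), 2.43-fold with a CI from 1.08-fold to 5.49-fold (limma, adjusted p = 1). The probe sets thus gave the same direction and different sizes, and their mean gave a log2 difference of 1.94, or 3.84-fold. The brighter probe set passed the filter only through its RA arrays, since its vehicle mean was below the filter value of 4.35 on the log2 scale, and it failed the filter without RA replicate 2. Its size depended on the pseudocount too, at 8.55-fold with a pseudocount of 1 and 3.34-fold with a pseudocount of 20.

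**Figure D1:**
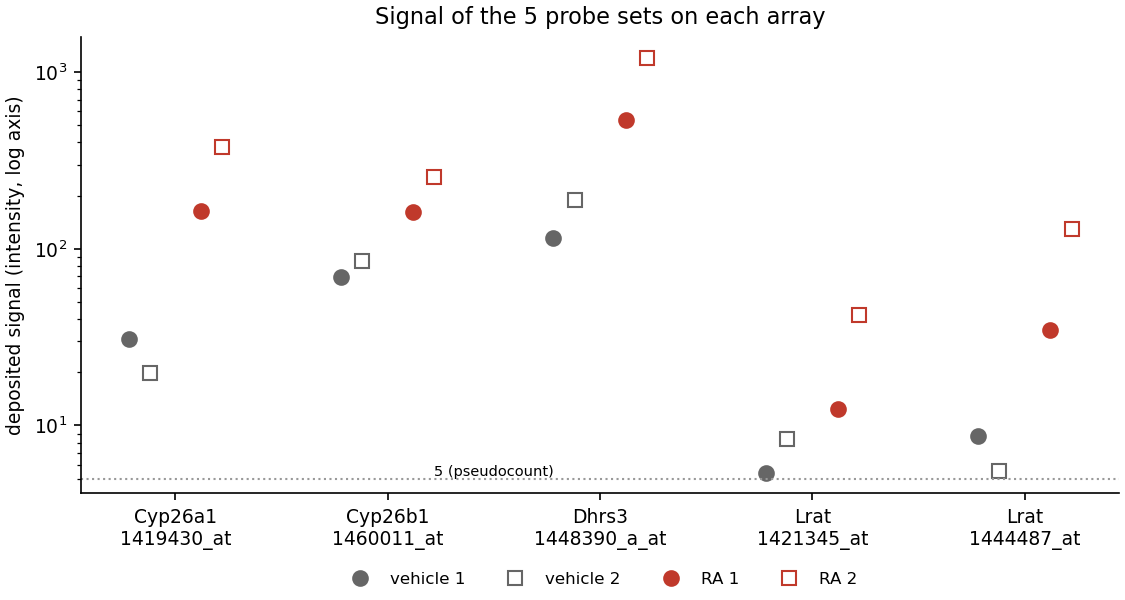
Deposited signal (vertical log axis) of the 5 probe sets of the 4 enzyme genes, with 1 point per array, vehicle in grey and RA in red. All RA points lie above all vehicle points of the same probe set, the RA 2 point is the highest in each, and the Lrat vehicle points lie between 5.41 and 8.73, near the dotted line at the pseudocount of 5.

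Of the 5 probe sets, all 5 had both RA arrays above both vehicle arrays, and 4 of the 5 were above the signal filter. Over all probe sets above the filter, 12.7% had both RA arrays above both vehicle arrays. The lower RA signal was at least 2-fold above the higher vehicle signal in 3 of the 5, against 0.159% of all probe sets above the filter. The dimmer Lrat probe set, below the filter and so outside these shares, was apart by 1.49 times and is not one of the 3. At an unadjusted p under 0.05 in limma the 4 members above the filter were all higher, where 1.1% of all probe sets were called higher, and at an adjusted p under 0.05 there were 0 members and 0% of all probe sets. The brighter Lrat probe set is counted among these 4 and among the 3 at least 2-fold apart. It was above the filter only through its RA arrays, where it had to be the higher. By size of the log2 difference, Cyp26a1 ranked 2, the brighter Lrat probe set 4, Dhrs3 6 and Cyp26b1 47 from the top of 27022. These genes were chosen with results of these data known, so their counts and ranks describe them and test nothing. An exact two-sided permutation test of 2 arrays against 2 cannot give a p below 0.333, and each of the 5 probe sets reached that value.

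The size of the changes depended on the arrays used. Without RA replicate 1 the fold was 12.7 for Cyp26a1, 11.2 for the brighter Lrat probe set, 7.96 for Dhrs3 and 3.16 for Cyp26b1. Without RA replicate 2 these folds were 5.64, 3.30, 3.55 and 2.02, and the Lrat probe set was then below the filter. In every one of these fits the lone array of a group is assumed to vary like the other group, so no p-values are given for them.

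The RA arrays differed from each other in the same direction for every member. RA replicate 2 was above RA replicate 1 by 2.29 times in signal for Cyp26a1, 1.58 times for Cyp26b1, 2.25 times for Dhrs3, and 3.74 and 3.39 times for the brighter and the dimmer Lrat probe set. On the log2(signal + 5) scale these differences ran from 0.64 for Cyp26b1 to 1.76 for the brighter Lrat probe set. Over all probe sets above the filter, 47.6% were higher on RA replicate 2 than on RA replicate 1, the median difference was −0.03, and 9.55% had a difference as large as that of Cyp26b1 or larger. Both RA arrays above both vehicle arrays, with RA replicate 2 the higher, was the pattern of 6.33% of all probe sets above the filter. The vehicle arrays gave no common order. Vehicle replicate 2 was above vehicle replicate 1 for Cyp26b1, Dhrs3 and the dimmer Lrat probe set, by 0.28, 0.69 and 0.36 on the log2 scale, and below it for Cyp26a1 and the brighter Lrat probe set, by −0.52 and −0.38. RA replicate 2 was also the RA array with the higher 3' to 5' ratios and with the higher summed signal of the stromal markers (22043 against 15477), the leukocyte markers (2628 against 1228) and the mast cell markers (7416 against 2444). The vehicle arrays had the same order in these sums, with 19284 on replicate 2 against 15628 on replicate 1 for stromal, 2793 against 1530 for leukocyte and 8228 against 4035 for mast cell markers, while the members had no common order there. The Sertoli sum (5893 against 5033.5) and the Leydig sum (2108 against 1660) were also higher on RA replicate 2. Both were higher on vehicle replicate 2 as well, at 5324 against 4647 and at 2691 against 1494. The germ cell sum was higher on RA replicate 2 (12368 against 11699) but lower on vehicle replicate 2 (13067 against 13302). The endothelial sum was lower on replicate 2 in both groups (536 against 545 with RA, 409 against 494 with vehicle). The part of these in the order of the RA arrays was not tested.

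**Figure D2:**
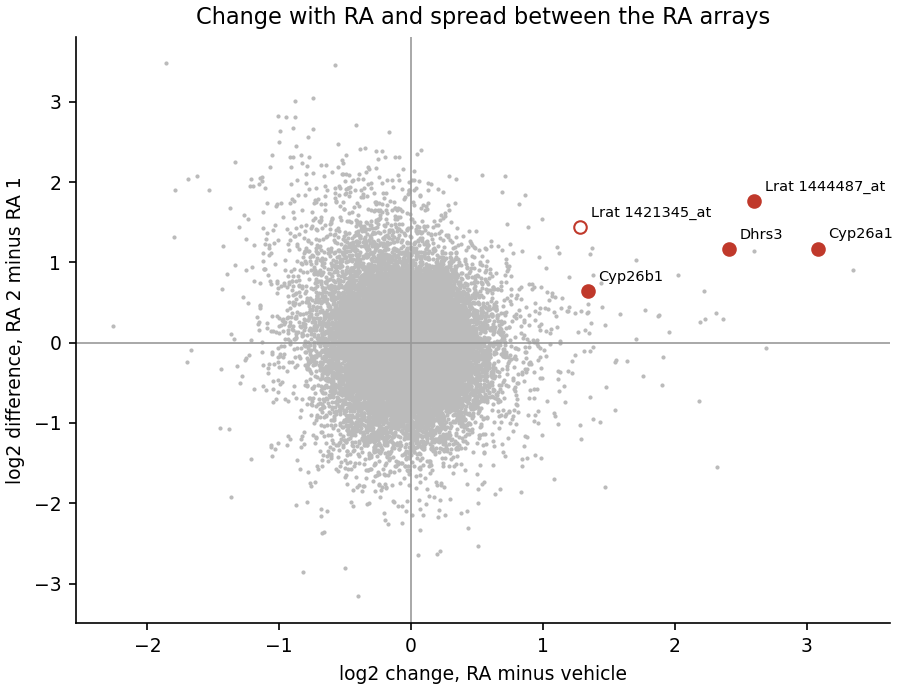
Log2 change with RA (horizontal axis) against the log2 difference of the 2 RA arrays (vertical axis, RA 2 minus RA 1) for all probe sets above the filter (grey) and the 5 enzyme probe sets (red, open where below the filter). The enzyme probe sets lie at upper right, with differences between the RA arrays from 0.64 to 1.76.

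The genes with the closest patterns were found by the root mean square difference of log2 values, each gene centred on its own mean, over the 4 arrays and the 13011 genes above the filter, each read from its brightest probe set. Tmem255a, a transmembrane protein gene, was the closest to Dhrs3 (0.199) and to Lrat (0.299), and the second closest to Cyp26a1 (0.351), after Lrat (0.322). Its signals were 145 and 166 in the vehicle samples against 647 and 1433 in the RA samples. Stra8, which germ cells need to enter meiosis, was the third closest to Cyp26a1 (0.456), and Crxos, a homeobox gene, the third closest to Lrat (0.435) after Tmem255a and Cyp26a1. For Dhrs3 the next were Spon2, an extracellular matrix gene (0.331), and Csn3, a milk casein gene (0.359), both dim with vehicle, at signals of 6.13 and 5.81 for Spon2 and of 10.1 and 16.7 for Csn3, and both above the filter only through their RA arrays. Cyp26b1 had other neighbours than the remaining 3 genes. They were Cstdc1 at 0.0926, the transcriptional repressor gene Hic1 at 0.147 and Dmp1, a matrix protein gene of bone and dentin, at 0.150. Cstdc1 gave 168 and 199 in the vehicle samples against 394 and 520 in the RA samples, a 2.44-fold higher level. These are likenesses over 4 arrays of 2 groups, and genes with a large change in the same direction come out as alike.

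**Figure D3:**
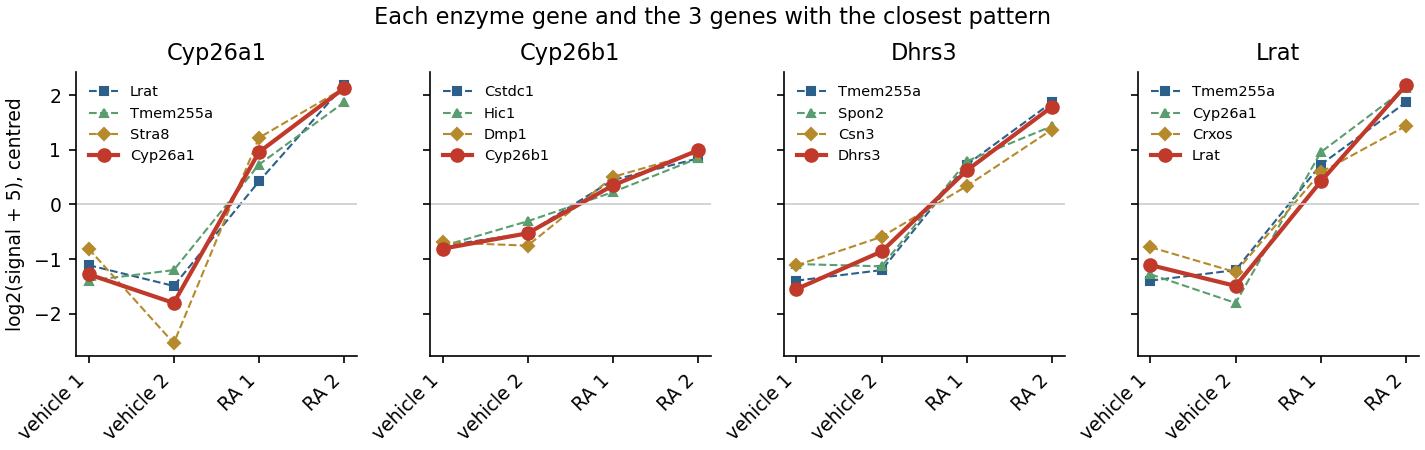
Log2(signal + 5), centred on each gene's mean (vertical axis), on the 4 arrays (horizontal axis) for each enzyme gene (red line) and the 3 genes with the smallest root mean square difference to it (dashed lines). Cyp26a1, Dhrs3 and Lrat share Tmem255a as a neighbour, and Cyp26b1 has the flattest profile of the 4 enzyme genes.

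Most other genes of retinoid metabolism and response overlapped between the groups, as did most of all genes. Stra6 and Rarb had the largest differences among these retinoid genes. Of 52 such genes 48 had a probe set of their own and 34 were above the filter. Of the 34, 0 passed adjustment (limma, adjusted p under 0.05), as did 0% of all genes, 3 were higher and 0 lower at an unadjusted p under 0.05, where 1.41% of all genes were higher and 1.3% lower. The 2 RA arrays exceeded both vehicle arrays in 4 of the 34 and were below them in 3, against 14.1% and 12.6% of all genes. With quantile normalization or cyclic loess the lower count was 1. The median log2 difference of the 34 was 0.02, beside 0.01 over all 13011 genes.

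The other genes listed under clearance and storage overlapped between the groups in 5 of the 5 above the filter. Of all genes, 14.1% were apart higher and 12.6% apart lower, so overlap was common. The median log2 difference of the 5 was 0.03. Dgat1, an acyltransferase that can also esterify retinol, gave 186 and 163 in the vehicle samples against 161 and 197 in the RA samples (log2 difference 0.03 ± 0.22, SE, n = 2 per group). Retsat, a retinol saturase, stood at 0.06 ± 0.41, and Lipe, a lipase able to release retinol from esters, at 0.49 ± 0.39. Cyp26c1, the remaining RA-degrading enzyme of the family, was not analysed here.

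Among 15 genes above the filter that were listed under synthesis the median log2 difference was −0.0024. Rdh10 was the only one with an unadjusted p under 0.05. The list takes in Rdh11, Rdh12, Rdh13, Rdh14 and Dhrs4. It was not sorted by the direction an enzyme runs, so it may hold enzymes that reduce retinaldehyde as Dhrs3 does. Rdh10 and Rdh12, 2 of the 15, were apart higher, against 14.1% of all genes. Dhrs4, 1 of the 15, was apart lower, against 12.6% of all genes. Rdh10, which oxidises retinol to retinaldehyde and so opposes Dhrs3, gave 170 and 162 in the vehicle samples against 271 and 249 in the RA samples, 1.55-fold higher (limma, adjusted p = 1). On its other probe set the groups overlapped, at 86.2 and 65.9 against 122 and 75.7. Aldh1a1 and Aldh1a2, which make RA from retinaldehyde, stood at −0.33 ± 0.28 and −0.16 ± 0.24, and Aldh1a3 at −0.69 ± 0.68, with overlapping groups in all 3.

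Of 9 uptake and binding genes above the filter, Stra6 was the only one whose groups were apart. Of all genes, 14.1% were apart higher and 12.6% apart lower. Stra6, the membrane receptor that takes up retinol from its carrier protein, gave 44.6 and 29.5 in the vehicle samples against 175 and 228 in the RA samples, 4.96-fold higher (limma, adjusted p = 0.209). Crabp2, which carries RA to the nucleus, stood at 0.49 ± 0.32, and Crabp1, another RA-binding protein, at −0.19 ± 0.23. Among 5 receptor genes above the filter Rarb was higher, with signals of 14.9 and 6.56 in the vehicle samples against 95.4 and 90.5 in the RA samples (limma, adjusted p = 0.209). Its vehicle mean on the log2(signal + 5) scale, 3.92, was below the filter, so it was above the filter only through its RA arrays, where it had to be the higher. Of the 34 other retinoid genes above the filter it was the 1 of which this held. Rxra and Rxrb, the partner receptors, had both RA arrays below both vehicle arrays, at −0.29 ± 0.22 and −0.24 ± 0.21, as had 12.6% of all genes. Neither had an unadjusted p under 0.05 (limma, 0.227 for Rxra and 0.288 for Rxrb).

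**Figure D4:**
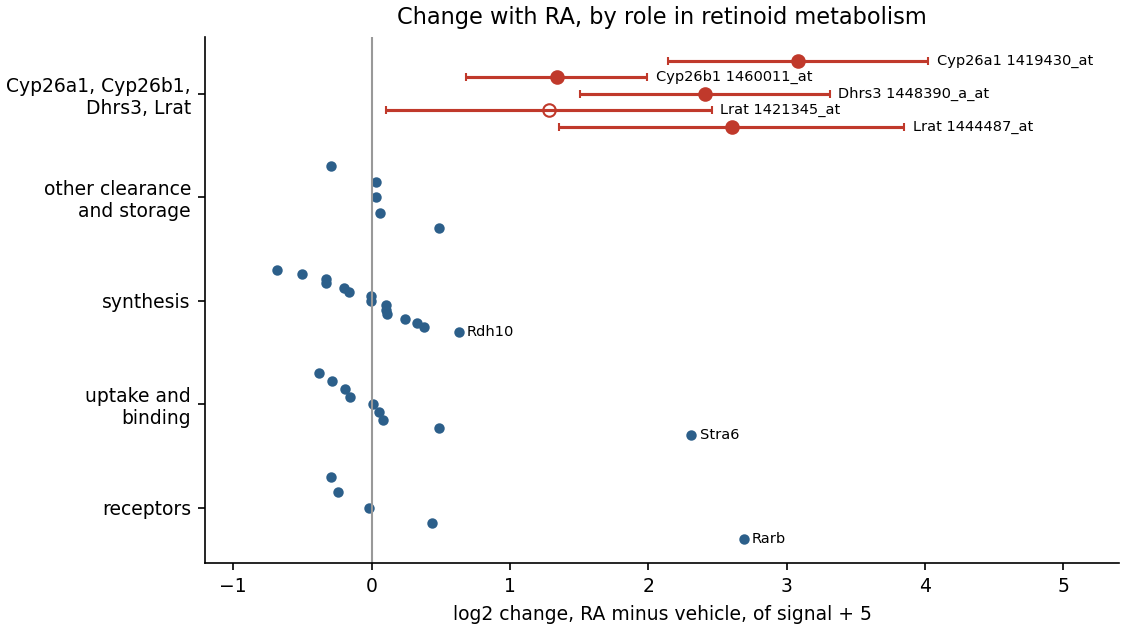
Log2 change with RA (horizontal axis) of the 5 enzyme probe sets (red, with 95% confidence intervals, open where below the filter and fitted with no filter) and of 34 other retinoid genes above the filter, by the role they were listed under (blue, 1 point per gene). Names are given to the blue points with an unadjusted p under 0.05, which are Rdh10, Stra6 and Rarb.

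Markers of germ cells and of the remaining testis cell types were set beside the enzymes, because in a mixture of cells fewer cells of a type and less RNA per cell cannot be told apart. Germ cell markers were well measured, with 16 of 16 above the filter, and Ddx4, a germ cell RNA helicase, at signals of 1305 and 1289 in the vehicle samples against 1300 and 1121 in the RA samples. Markers of other cells were measured as well. All 15 peritubular and stromal markers were above the filter, as were 11 of 13 Sertoli, 6 of 6 Leydig, 10 of 10 endothelial, 8 of 10 leukocyte and 7 of 8 mast cell markers. The Sertoli hormone gene Amh and the receptor gene Fshr were below it. The THY1 gene itself gave 329 and 168 in the vehicle samples against 265 and 141 in the RA samples.

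Summed marker signals were apart between the groups for 2 of these cell types. The endothelial sum was 494 and 409 in the vehicle samples against 545 and 536 in the RA samples, with 4 of 10 markers higher on both RA arrays, where 14.1% of all genes were. The germ cell sum was 13302 and 13067 in the vehicle samples against 11699 and 12368 in the RA samples, with 6 of 16 markers lower on both RA arrays, where 12.6% of all genes were. At an unadjusted p under 0.05 in limma 4 of the 16 germ cell markers were lower and 0 higher, where 1.3% of all genes were lower. They were Zbtb16, a transcription factor gene of spermatogonia, with a log2 difference of −1.45, the GDNF receptor gene Ret, at signals of 514 and 562 in the vehicle samples against 254 and 277 in the RA samples, Id4 at −0.67 and the RNA-binding protein gene Lin28a at −0.47. No germ cell marker passed adjustment. The other sums overlapped. Sox9 and Wt1, 2 of 11 Sertoli markers, were higher on both RA arrays, a share near the 14.1% of all genes. Of the 11, Wt1 alone was higher at an unadjusted p under 0.05 in limma, where 1.41% of all genes were. Mcpt1, Mcpt4 and Ms4a2, 3 of 7 mast cell markers, were lower on both, against 12.6% of all genes, and 4 overlapped. These 3 were also lower at that unadjusted p, where 1.3% of all genes were, and 0 passed adjustment. Mcpt1 gave 305 and 411 in the vehicle samples against 64.5 and 75.6 in the RA samples (limma, adjusted p = 0.147). Ms4a2 was above the filter only through its vehicle arrays. The part of these in the higher enzyme signals was not tested.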

How the data were processed

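RNA from 4 samples was measured on 1 array each. Per the labels, 75 ng of total RNA was amplified with the NuGEN Ovation system, and GCOS 1.2 quantified the images. The authors deposited 1 linear intensity per probe set. The probe summary and array scaling are not given in the sources used here. Trimmed means (leaving out 2% at either end) were 125 on all 4 arrays, and no further scaling was applied. Arrays have no read depth, and their number limits the precision.

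Gene names came from the platform annotation and were brought up to date by Entrez ID (34741 of 34945 with 1 gene matched). Values were taken as log2(intensity + 5). Probe sets with a mean at or above the 40th percentile were fitted with limma 3.58.1 in R 4.3.3 (eBayes with an intensity trend, two-sided, Benjamini-Hochberg adjustment over 27022 probe sets), which was tested on simulated data. The fit had 2 residual and 5.81 prior degrees of freedom. A gene was read from its brightest probe set. The members, gene lists and tests were chosen with earlier results of these data known. Named genes are all members, the 3 closest patterns per member, and other retinoid genes with an unadjusted p under 0.05 and groups apart; the remaining ones were picked as examples of their role after their values were seen. Alternatives covered normalization, pseudocount, filter, variance model, replicate block, each array left out, and probe set means. Figures were drawn with matplotlib 3.10.9.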

Additional observations from a re-analysis of the deposited data

How the results depend on the processing

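Each member probe set stayed higher with RA under every alternative that gave it a value. With a pseudocount of 1 the fold was 9.64 for Cyp26a1, 2.61 for Cyp26b1 and 5.43 for Dhrs3. With a pseudocount of 20 these folds were 5.98, 2.29 and 4.93. No alternative of normalization, pseudocount, filter or variance trend brought a member past an adjusted p of 0.05 in limma. With 1 array left out, the log2 change ranged from 2.50 to 3.67 for Cyp26a1, from 1.02 to 1.66 for Cyp26b1, from 1.83 to 2.99 for Dhrs3 and from 1.72 to 3.48 for the brighter Lrat probe set. That probe set was below the filter without RA replicate 2, so its 1.72 has no test, and its tested values ran from 2.41 to 3.48. It was also below the filter at the 60th percentile. The count of probe sets called over all features, 0 in either direction, ranged from 0 to 57 higher and from 0 to 116 lower. Of the other retinoid genes, those with groups apart ranged from 7 to 13 higher and from 8 to 12 lower with 1 array left out. Groups apart are reached more easily with 3 arrays than with 4. At the 60th percentile filter 2 were apart higher, and with quantile normalization or cyclic loess 1 was apart lower.

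The labels number the samples 1 and 2 in each group, and deviations of same-numbered arrays correlated at 0.53, which with 2 pairs does not show that they are paired. With the replicate number as a block the log2 changes were the same, at 3.08, 1.34, 2.41 and 2.60, and all 4 members passed, while 221 probe sets were called higher and 322 lower, and 2 other retinoid genes were called higher. That fit had 1 residual degree of freedom and an unlimited prior, so its p-values rest on a variance shared by probe sets of like intensity. Signals near the background limit what can be said of Lrat without RA.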

Other observations

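A DR5 was found in the promoter windows of 31 genes in all. Besides Cyp26a1, 6 of these were above the signal filter. Their log2 changes with RA ran from 0.05 to 2.69 with a median of 0.34, and 2 of the 6, Rarb and Ppbp, had both RA arrays above both vehicle arrays, against 14.1% of all genes. Ppbp, the precursor of a platelet chemokine, stood at 2.32 ± 0.52 (limma, SE, n = 2 per group, adjusted p = 1), and like Rarb it was above the filter only through its RA arrays. Its DR5 lies 229 bases before the listed start, at chr5:90768268-90768294, minus strand, with the hexamers in capitals.
Ppbp DR5: acttagAGGTCAgacctAGGTCAgatc
The other 4, Blvrb, Cfap45, Prokr2 and Tnfsf13b, had overlapping groups and log2 changes of 0.42, 0.16, 0.26 and 0.05. This set was formed after the values of Cyp26a1 and Rarb were seen and was not tested.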
